A study of Mus musculus with 8 samples.

Results

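The 4 tissue inhibitors of metalloproteinases, Timp1, Timp2, Timp3 and Timp4, and the membrane-anchored inhibitor Reck were examined in the aortas of ApoE-/- and WT mice. These 5 genes are taken by name, as endogenous inhibitors of matrix metalloproteinases (MMPs), and were chosen with earlier results of these data known. All 5 were found among the 21859 genes of the deposited counts, and all 5 passed the filter on low counts that left 15077 genes for testing. Male ApoE-/- and WT mice on the C57BL/6 background, all 40 weeks old and kept on a normal chow diet, gave 4 aortas each, and every aorta was sequenced as its own stranded, ribodepleted total RNA library. ApoE-/- mice lack apolipoprotein E in all their cells and form atherosclerotic plaques as they age, so lesion, medial wall and attached tissue were all in the same RNA. In such bulk samples, fewer cells of a type and less RNA per cell cannot be told apart.

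TIMPs are small secreted proteins that block MMPs by placing the cysteine at the start of the mature protein on the zinc ion of the enzyme's active site. Timp1 is a poor inhibitor of the membrane-type enzyme Mmp14, Timp2 both inhibits MMPs and helps Mmp14 to activate pro-Mmp2, Timp3 is held in the extracellular matrix and also inhibits ADAM and ADAMTS proteases, and Timp4 is known from heart and fat. Reck is bound to the cell surface, restrains Mmp2, Mmp9 and Mmp14, and takes part in Wnt7 signalling in brain vessels. In the artery wall, MMPs degrade collagen and elastin, and the inhibitors are made by smooth muscle cells, fibroblasts, endothelial cells and macrophages.

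The coding stretch that starts at this zinc-binding cysteine is shown for each TIMP because it is the feature that the family shares, with the codons of the first and the next cysteine in capitals. The stretches of 30 bases were read from the transcripts Timp1-201, Timp2-201, Timp3-201 and Timp4-201 of GENCODE M21 (GRCm38), written 5′ to 3′ on the coding strand.
Timp1: TGTagcTGTgccccaccccacccacagaca
Timp2: TGCagcTGCtccccggtgcacccgcaacag
Timp3: TGCacaTGCtctcccagccatccccaggat
Timp4: TGCagcTGTgcgcctgcgcacccccagcag
The stretches lay at chrX:20871111-20871140 on the plus strand in exon 2 of Timp1, at chr11:118354983-118355012 on the minus strand in exon 1 of Timp2, at chr10:86300923-86300952 on the plus strand in exon 1 of Timp3, and at chr6:115251662-115251691 on the minus strand in exon 1 of Timp4. The stretches were found by the amino acid pattern C.C.P.HPQ, where a dot is any residue. The places of both cysteine codons within the stretches were therefore fixed by this choice. The first cysteine was codon 25 of Timp1, 27 of Timp2, 24 of Timp3 and 30 of Timp4. Between any pair, 16 of 30 bases (Timp1 and Timp3) to 23 of 30 bases (Timp2 and Timp4) were equal, in part because of the pattern. Over the whole coding sequence, the aligned bases of the 6 pairs were 58.1% (Timp1 and Timp3) to 65.4% (Timp3 and Timp4) identical. Reck, with a coding sequence of 2913 bases against 615 to 672 bases for the TIMPs, held no match to this pattern.

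The libraries held 23240995 to 23940156 read pairs on genes in ApoE-/- mice and 18375898 to 21664598 in WT mice, and the lowest count of a member in a library was 114 pairs, for Timp1 in WT replicate 3. Pairs on genes were 32.3% to 35.6% of all pairs in ApoE-/- and 27.9% to 30.2% in WT mice, and pairs without a feature 50.1% to 54.7% and 56.4% to 58.0%, both without overlap between the genotypes, and their part in the results was not tested. Levels are given as CPM, the pairs counted on a gene per 1000000 pairs on the tested genes of the library, scaled by edgeR's TMM factors. Apoe, the disrupted gene, had 14.7 to 36.3 CPM in ApoE-/- and 536 to 857 CPM in WT mice. ApoE-/- replicate 1 stood apart. Its summed level of 9 neuron and glia markers was 4584 CPM, against 52.7 to 363 CPM in the other ApoE-/- mice and 273 to 963 CPM in WT mice, and its summed level of 10 contractile smooth muscle markers was 5559 CPM, against 13682 to 22784 CPM and 12318 to 22977 CPM. Every member is therefore given with and without this mouse.

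Timp1 rose about 10-fold in ApoE-/- aortas, and Timp4 was lower in every ApoE-/- mouse than in any WT mouse but did not pass edgeR's test with all 8 mice. Timp2 was higher in 3 of the 4 ApoE-/- mice, and neither Timp3 nor Reck differed detectably. With edgeR's quasi-likelihood test, 1 of the 5 members was called higher at an adjusted p under 0.05, where 0.371% of all genes tested were called higher, and 0 were called lower, where 0.0929% of all genes were (0.464% in either direction). At an unadjusted p under 0.05, 2 members were counted, where 11.4% of all genes were. DESeq2 called 2 members, Timp1 and Timp4, against 4.81% of all genes. Without ApoE-/- replicate 1, edgeR called 3 members, Timp1, Timp2 and Timp4, against 3.91% of all genes. With ApoE-/- replicate 3 or 4 or any WT mouse left out, edgeR called 0 members and 0 to 2 genes in all, in place of 70. The genotypes did not overlap for 2 members, Timp1 and Timp4, and for 8.71% of all genes.

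**Figure D1:**
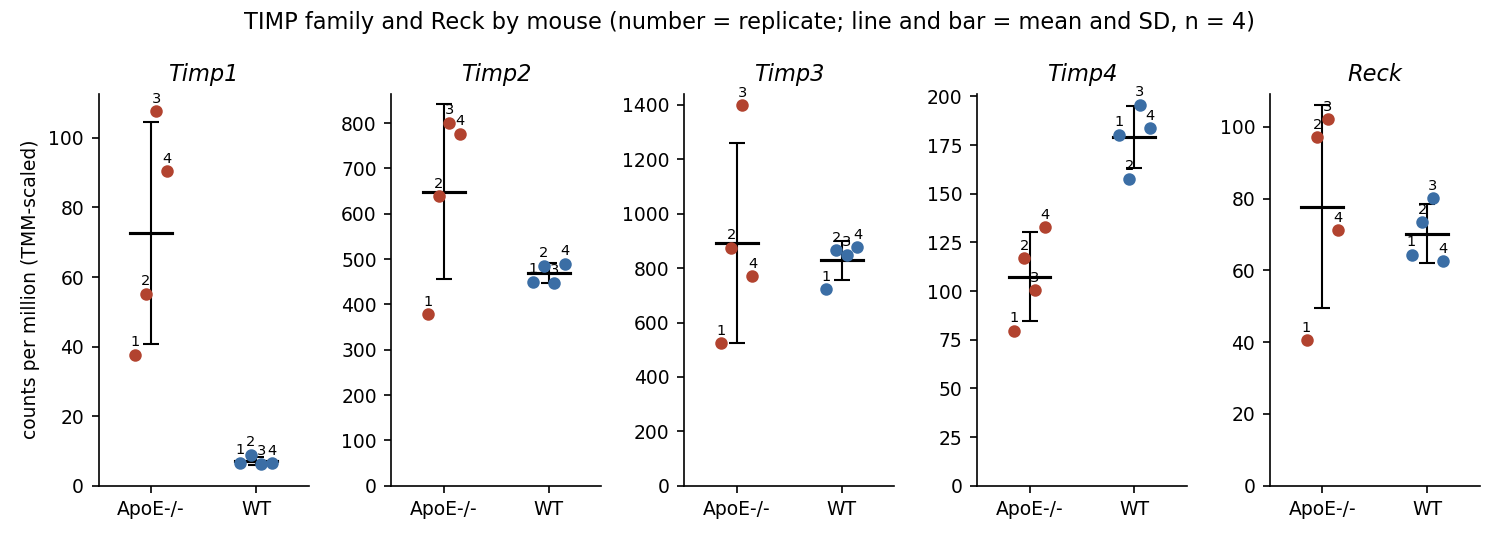
Level of Timp1, Timp2, Timp3, Timp4 and Reck in each aorta, in TMM-scaled CPM on linear axes that start at 0. Points are mice, numbered by replicate, with ApoE-/- in red and WT in blue, and the horizontal line and bar are the mean and SD of 4 mice. ApoE-/- mice had 37.7 to 108 CPM of Timp1 and WT mice 6.32 to 8.94 CPM, while Timp4 lay below every WT mouse in all 4 ApoE-/- mice.

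Levels of different genes were compared per kilobase of exon (CPM divided by the length of the union of each gene's exons). In every WT mouse the order was Timp2, Timp3, Timp4, Reck and Timp1. The mean level per kilobase in WT mice was 120 ± 5.72 for Timp2, 102 ± 8.79 for Timp3, 30.4 ± 2.69 for Timp4, 14.7 ± 1.72 for Reck and 7.98 ± 1.40 for Timp1 (SD, n = 4). The ranges of neighbours in this order did not overlap in WT mice. In ApoE-/- mice the mean level per kilobase was 167 ± 49.7 for Timp2, 110 ± 45.2 for Timp3, 81.9 ± 36.0 for Timp1, 18.2 ± 3.86 for Timp4 and 16.3 ± 5.92 for Reck (SD, n = 4), and neighbours in that order overlapped except Timp1 and Timp4. Timp1 was the third most abundant member in ApoE-/- replicates 1, 2 and 3 and the second in replicate 4, where it exceeded Timp3 (102 against 94.6 CPM per kilobase). With the longest transcript as the length in place of the exon union, Timp3 came before Timp2 in 7 of the 8 mice, and Timp1 was the third in all 4 ApoE-/- mice, replicate 4 included (ratio of Timp3 to Timp1 1.59, against 0.930 with the exon union). Both orders therefore depend on the length chosen.

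Timp1 (ENSMUSG00000001131.11, chrX:20870166-20874735, plus strand) is the inducible member of the family, known as an acute response gene of inflamed and wounded tissue. It had 37.7, 55.2, 108 and 90.4 CPM in ApoE-/- replicates 1 to 4 and 6.61, 8.94, 6.32 and 6.46 CPM in WT replicates 1 to 4, from 928 to 2472 and 114 to 191 read pairs. The lowest ApoE-/- mouse, replicate 1, was still 4.21 times the highest WT mouse. The log2 fold change was 3.36 (SE 0.35, 95% interval 2.56 to 4.15), a linear fold of 10.3, with an adjusted p of 0.0353 by edgeR and 2.87e-18 by DESeq2. By its edgeR p, Timp1 ranked 3 among the 8747 genes with a fold change above 0. Its CPM lay at the percentile 26.9 of the genes tested in WT mice and at 77.8 in ApoE-/- mice. Without ApoE-/- replicate 1 edgeR gave a log2 fold change of 3.58 (SE 0.25) and an adjusted p of 0.00188. Leaving out any other mouse except ApoE-/- replicate 2 brought edgeR's adjusted p above 0.05 (0.0587 to 0.146) with log2 fold changes of 3.11 to 3.49.

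Macrophages are among the cells that make Timp1, and plaque macrophages accumulate in ApoE-/- aortas. The summed level of 10 macrophage markers was 428, 889, 1188 and 2299 CPM in ApoE-/- replicates 1 to 4 and 247 to 353 CPM in WT mice, without overlap. All 10 markers had fold changes above 0, 2 of them (Fcgr1 and Trem2) were called by edgeR and 7 by DESeq2 (also Cd68, Adgre1, Lyz2, Itgam and Gpnmb), and no marker was at 0 in all libraries. Both edgeR calls were lost with any mouse other than ApoE-/- replicate 1 left out, and without that mouse edgeR called 7. Timp1 and these markers were both lowest in replicate 1 among the ApoE-/- mice, but Timp1 peaked in replicate 3 and the markers in replicate 4. The 9 fibroblast markers summed to 3986 to 9208 CPM in ApoE-/- and 4454 to 5894 CPM in WT mice, with overlap. Of these, 8 had fold changes above 0, DESeq2 called 1 (Lum, higher), and edgeR called 0 with all mice and 3 without ApoE-/- replicate 1. The part of either cell type in the Timp1 level was not tested.

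The start of Timp1 is shown because it carries a known variant of the AP-1 element beside an ETS element, both in capitals, and Timp1 was the member that rose. The window ran from 250 bases before to 50 bases after the start (RefSeq, GRCm38.p6), and the stretch shown is chrX:20870186-20870215 on the plus strand, inside the noncoding first exon of Timp1-202.
Timp1 start: ggtggaTGAGTAAtgcgtccAGGAAGcctg
The element TGAGTAA begins at base 27 and AGGAAG at base 41 of the gene, counted from 1 at the start. Both strands of all 5 members' windows were searched. TGAGTAA was found in Timp1 alone, and in 2.68% of the 32851 promoter windows of mouse genes. AGGAAG was found 3 times in Timp1 and 1 time each in Timp3 and Timp4, and in 35.4% of all windows. The consensus AP-1 motif TGANTCA, held by 7.81% of windows, and the STAT motif TTCNNNGAA, held by 8.30%, were in none of the 5 windows, which speaks only of these letters in these windows.

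Genes known to regulate Timp1, called inducers here for short, were followed as a list of 21 genes, of which 19 were tested. They were the interleukin-6 family with its receptors, signal transducers and inhibitor Socs3, TGF-beta, the cytokines Il1b and Tnf, and the factors Runx1 and Runx2. edgeR called 2 of the 19, Il6 and Runx1, both higher, and DESeq2 also called Socs3 and Il1b. At an unadjusted p under 0.05, edgeR counted 9, where 11.4% of all genes were. The genotypes did not overlap for 7 of the 19, and for 8.71% of all genes. Leaving out any mouse other than ApoE-/- replicate 1 left 0 of the inducers called by edgeR, and limma-voom called 1. Of the 19, 15 had fold changes above 0, with a median log2 fold change of 0.41, against 58.0% of all genes and a median of 0.05. Il6, the founding cytokine of the family, had 3.10 to 6.58 CPM in ApoE-/- and 0.00 to 0.28 CPM in WT mice (log2 fold change 4.87, SE 0.71, edgeR adjusted p = 0.0396), with 0 to 6 read pairs in WT libraries. Runx1, a transcription factor known to act on the Timp1 promoter, had 31.5 to 71.6 against 9.81 to 13.9 CPM (log2 fold change 1.95, SE 0.27, edgeR adjusted p = 0.0381). Neither gene overlapped between the genotypes. Socs3, the feedback inhibitor that STAT3 induces, had 20.5 to 38.2 against 7.42 to 12.9 CPM (log2 fold change 1.38, SE 0.26), with an adjusted p of 0.0635 by edgeR and 0.000141 by DESeq2. Stat3 itself had 228 to 334 against 202 to 223 CPM (edgeR adjusted p = 0.282). The receptor Osmr had 121 to 253 against 121 to 149 CPM (adjusted p = 0.320), and without ApoE-/- replicate 1 its log2 fold change was 0.77 (adjusted p = 0.0132). Tgfb1 had 15.5 to 41.9 against 18.2 to 23.8 CPM (adjusted p = 0.759). Osm, whose product is a strong Timp1 inducer, did not pass the filter, with 9 to 24 read pairs in ApoE-/- and 1 to 7 in WT libraries. Of 11 Fos, Jun and related AP-1 genes, 10 were tested, and edgeR and DESeq2 called 0 of them, with 0 at an unadjusted p under 0.05 in edgeR and a median log2 fold change of 0.29.

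**Figure D2:**
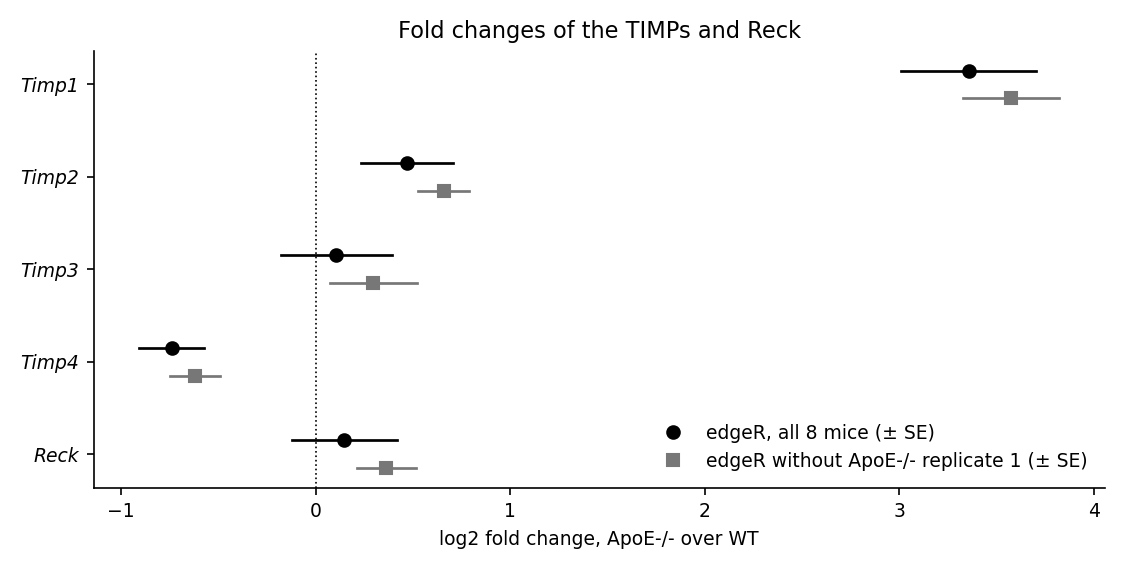
Log2 fold change of each member, ApoE-/- over WT, from edgeR with all 8 mice (circles) and without ApoE-/- replicate 1 (squares), with the standard error as a bar and a dotted line at 0. Timp1 lies at 3.36, Timp4 at −0.74, and Timp2, Timp3 and Reck between 0.11 and 0.47 with all mice.

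Timp4 (ENSMUSG00000030317.8, chr6:115241892-115252205, minus strand), the TIMP with the most restricted expression, had 79.6, 117, 100 and 133 CPM in ApoE-/- replicates 1 to 4 and 180, 158, 196 and 184 CPM in WT replicates 1 to 4. Every ApoE-/- mouse was below every WT mouse. The fitted log2 fold change was −0.74 (SE 0.17, 95% interval −1.12 to −0.36), and the mean WT level was 1.67 times the ApoE-/- level by the fitted fold. The edgeR adjusted p was 0.0970 (unadjusted p = 0.00197) and the DESeq2 adjusted p 0.00232, so Timp4 was called by DESeq2 but not by edgeR. Without ApoE-/- replicate 1, the lowest mouse, the log2 fold change was −0.62 (SE 0.13) with an edgeR adjusted p of 0.0414. Timp4 ranked 74 by edgeR's p among the 6330 genes with a fold change below 0.

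Timp4 is abundant in heart and in adipose tissue, both of which can remain attached to a dissected aorta. The summed level of 9 cardiac muscle markers was 342, 335, 341 and 160 CPM in ApoE-/- replicates 1 to 4 and 717, 414, 620 and 519 CPM in WT replicates 1 to 4, without overlap. All 8 tested cardiac markers had fold changes below 0. edgeR called 0 of them, 7 had an unadjusted p under 0.05, and DESeq2 called 5 (Tnnt2, Tnni3, Actc1, Nppa and Myl4), while Myl2 did not pass the filter. In the fit without ApoE-/- replicate 1, in which Timp4 was called, edgeR called 6 of the 8 cardiac markers. Among ApoE-/- mice, replicate 4 had the lowest cardiac marker sum and the highest Timp4, and among WT mice replicate 2 was the lowest in both, but the highest cardiac sum was in replicate 1 and the highest Timp4 in replicate 3. Of 10 adipocyte markers, 9 had fold changes below 0 and edgeR and DESeq2 called 0 of them, with 0 at an unadjusted p under 0.05 in edgeR. Their sum was 8923, 5112, 3430 and 13932 CPM in ApoE-/- replicates 1 to 4 and 11123, 7252, 7662 and 14275 CPM in WT replicates 1 to 4, with overlap. The adipocyte sum was highest in replicate 4 among ApoE-/- mice and lowest in replicate 2 among WT mice, as Timp4 was, but it was lowest in ApoE-/- replicate 3 and highest in WT replicate 4, where Timp4 was lowest in ApoE-/- replicate 1 and highest in WT replicate 3. By the mean log2 CPM of the adipocyte markers, the lowest WT mouse was replicate 3 (8.530), just under replicate 2 (8.548). The part of heart or fat tissue in the Timp4 level was not tested.

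Timp2 (ENSMUSG00000017466.9, chr11:118301069-118355740, minus strand), widely expressed in the artery wall, had 379, 638, 801 and 777 CPM in ApoE-/- replicates 1 to 4 and 450, 485, 448 and 490 CPM in WT replicates 1 to 4. ApoE-/- replicates 2, 3 and 4 lay above all WT mice and replicate 1 below all of them. With all mice the log2 fold change was 0.47 (SE 0.23, 95% interval −0.07 to 1.01, edgeR adjusted p = 0.532, DESeq2 adjusted p = 0.421). Without replicate 1 it was 0.66 (SE 0.13, edgeR adjusted p = 0.0379). The call on Timp2 therefore rested on whether this mouse was kept.

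The proteases that Timp2 meets at the cell surface, Mmp14 and Mmp2, were higher in all ApoE-/- mice than in any WT mouse. Mmp14 had 55.4, 74.7, 99.0 and 102 CPM in ApoE-/- mice and 33.5 to 41.4 CPM in WT mice (log2 fold change 1.17, SE 0.20, edgeR adjusted p = 0.0526, DESeq2 adjusted p = 3.11e-05). Mmp2 had 136, 161, 214 and 276 CPM in ApoE-/- mice and 83.0 to 91.3 CPM in WT mice (log2 fold change 1.18, SE 0.21, edgeR adjusted p = 0.0597, DESeq2 adjusted p = 5.87e-05). Both genes were past the threshold in edgeR without replicate 1 (adjusted p = 0.00621 and 0.00871). Per kilobase, the ratio of Mmp14 to Timp2 was 0.0765 to 0.0955 in ApoE-/- and 0.0451 to 0.0601 in WT mice. The ratio of Mmp2 to Timp2 was 0.292 to 0.414 in ApoE-/- and 0.199 to 0.230 in WT mice. Neither ratio overlapped between the genotypes, replicate 1 included.

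Timp3 (ENSMUSG00000020044.13, chr10:86300372-86349506, plus strand), the matrix-bound TIMP, had 524, 875, 1398 and 771 CPM in ApoE-/- replicates 1 to 4 and 722, 865, 849 and 877 CPM in WT replicates 1 to 4. The ApoE-/- mice lay on both sides of the WT range. The log2 fold change was 0.11 (SE 0.29, 95% interval −0.55 to 0.76, edgeR adjusted p = 0.940). Its sign turned on 1 mouse, since it was −0.20 (SE 0.21) without ApoE-/- replicate 3 and 0.30 (SE 0.22) without replicate 1.

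Of the ADAM and ADAMTS proteases, the particular targets of Timp3, 15 of 16 listed genes were tested and edgeR called 0, with 5 at an unadjusted p under 0.05. DESeq2 called 2, Adam8 and Adamts4, both higher. Adam8, a protease of leukocytes, had 9.82 to 52.9 against 3.35 to 4.26 CPM (log2 fold change 2.96, SE 0.49), with an adjusted p of 0.0526 by edgeR and 1.53e-07 by DESeq2. Adamts4, an aggrecan- and versican-cleaving enzyme, had 6.47 to 8.20 against 3.79 to 5.79 CPM (log2 fold change 0.59, SE 0.17, DESeq2 adjusted p = 0.0435). The TNF convertase Adam17 had 62.4 to 93.4 against 63.5 to 71.2 CPM, the related sheddase Adam10 103 to 135 against 97.3 to 107 CPM, and the aggrecanase Adamts5 100 to 144 against 114 to 131 CPM, all with overlap and with edgeR adjusted p of 0.621 to 0.901. Without ApoE-/- replicate 1, edgeR called 3 genes, Adam8, Adam9 and Adamts2.

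Reck (ENSMUSG00000028476.13, chr4:43875530-43944806, plus strand) had 40.5, 97.1, 102 and 71.1 CPM in ApoE-/- replicates 1 to 4 and 64.3, 73.4, 80.2 and 62.6 CPM in WT replicates 1 to 4. Replicates 2 and 3 of the ApoE-/- mice lay above the WT range, replicate 1 below it and replicate 4 within it. The log2 fold change was 0.15 (SE 0.27, 95% interval −0.47 to 0.77, edgeR adjusted p = 0.897), and −0.011 without ApoE-/- replicate 3. Without replicate 1 it was 0.36 (edgeR adjusted p = 0.249). Of its signalling partners, Adgra2, the receptor that Reck joins in Wnt7 signalling, had 47.9 to 71.3 against 62.7 to 75.4 CPM (edgeR adjusted p = 0.540), and Wnt7a and Wnt7b did not pass the filter, with at most 3 and 6 read pairs in a library.

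The makeup of the TIMP pool was then compared, as each gene's percent of the summed level per kilobase of the 4 TIMPs in a mouse. Timp1 made up 19.5%, 17.6%, 23.5% and 24.3% of it in ApoE-/- replicates 1 to 4 and 3.07%, 3.76%, 2.74% and 2.68% in WT replicates 1 to 4. Timp3 made up 22.6% to 33.3% in ApoE-/- and 36.6% to 40.2% in WT mice, and Timp4 3.30% to 6.21% and 9.999% to 12.8%, each without overlap. The share of Timp2, 39.9% to 47.7% and 44.3% to 47.7%, overlapped. Replicate 1, which had the lowest summed level, held shares within the range of the other ApoE-/- mice except for Timp4, where its 6.21% was the highest. The summed level itself, 218 to 516 CPM per kilobase in ApoE-/- and 242 to 272 in WT mice, overlapped because of replicate 1. These shares follow from the members' levels above and were not tested separately.

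**Figure D3:**
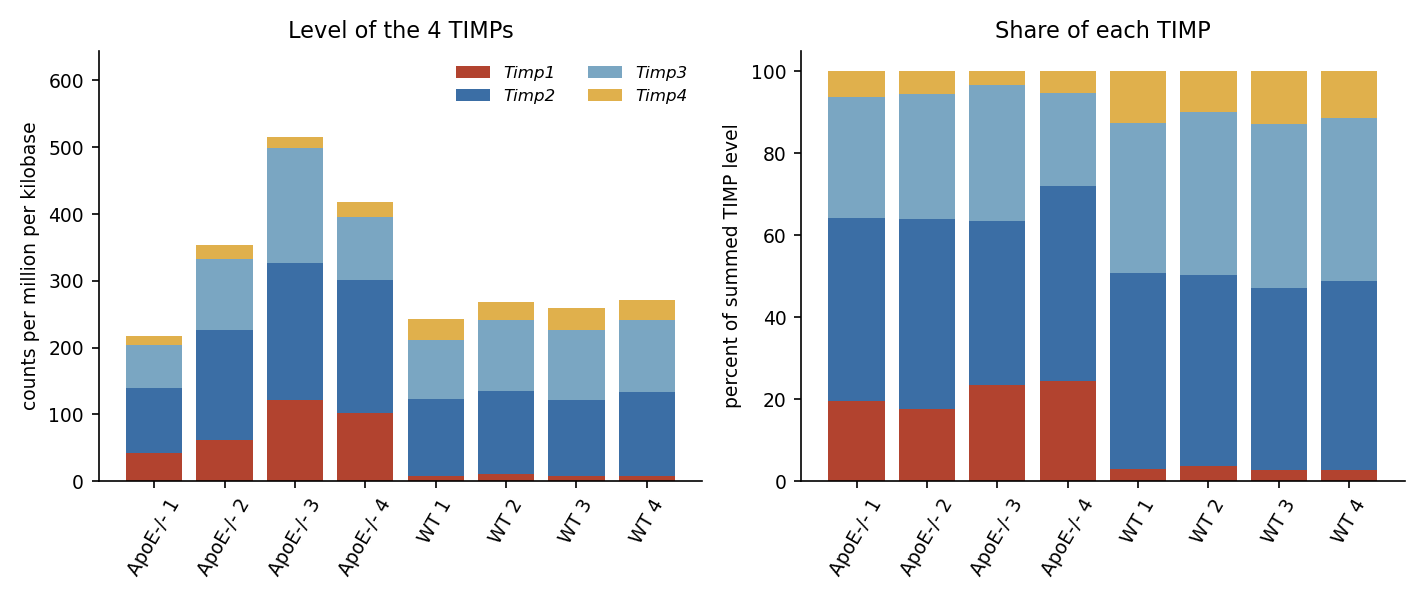
Summed level of the 4 TIMPs in each mouse in CPM per kilobase of exon (left) and the percent of it held by each TIMP (right), as stacked bars from 0. Timp1 holds 17.6% to 24.3% of the sum in ApoE-/- mice and 2.68% to 3.76% in WT mice, and the shares of Timp3 and Timp4 are smaller in every ApoE-/- mouse.

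The MMPs, the main targets of the family, had fold changes mostly of the same sign as Timp1. Of 23 listed MMPs, 22 had a row in the files, 17 were tested and 16 of these had fold changes above 0, with a median log2 fold change of 0.70, against 58.0% of all genes and a median of 0.05. At an unadjusted p under 0.05, edgeR counted 7 of the 17 in either direction, where 11.4% of all genes were. edgeR called 2, Mmp12 and Mmp13, and DESeq2 also called Mmp2, Mmp3 and Mmp14. Without ApoE-/- replicate 1, edgeR called these 5, and with any other mouse left out, or with limma-voom, 0 MMPs were called. Mmp12, the elastase of macrophages, had 9.21, 59.7, 89.1 and 140 CPM in ApoE-/- replicates 1 to 4 and 0.53 to 1.73 CPM in WT mice (log2 fold change 5.82, SE 0.85, edgeR adjusted p = 0.0396). Mmp13, an interstitial collagenase, had 2.80, 4.90, 6.14 and 23.7 CPM in ApoE-/- mice and 0.00 to 0.19 CPM in WT mice (edgeR adjusted p = 0.0438), and its fitted log2 fold change of 6.51 (SE 0.99) rests on 0 to 4 read pairs per WT library. Both were lowest in replicate 1 and highest in replicate 4 among the ApoE-/- mice, the order of the summed macrophage markers. Per kilobase, and averaged over all 8 mice, the most abundant MMPs were Mmp3, Mmp2, Mmp23 and Mmp14, although in WT mice the mean levels of Mmp28 (8.57) and Mmp17 (7.47) exceeded that of Mmp14 (6.18). Mmp3, stromelysin 1, had 90.0 to 134 against 39.5 to 71.1 CPM (log2 fold change 1.08, SE 0.20, edgeR adjusted p = 0.0634, DESeq2 adjusted p = 0.000223), without overlap. Mmp23 had 23.7 to 58.8 against 37.3 to 49.8 CPM (edgeR adjusted p = 0.937).

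**Figure D4:**
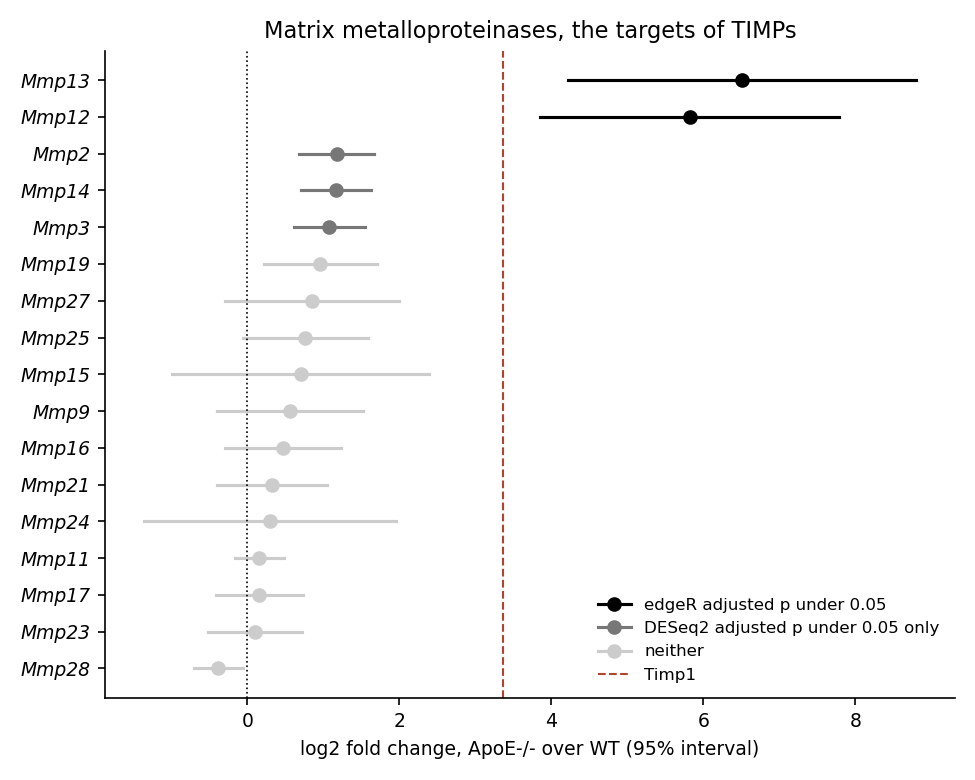
Log2 fold change of the 17 tested MMPs, ApoE-/- over WT, from edgeR with 95% intervals, ordered by size; black marks an edgeR adjusted p under 0.05, dark grey a DESeq2 adjusted p under 0.05 only, light grey neither, and the dashed line the fold change of Timp1. Mmp13 at 6.51 and Mmp12 at 5.82 lie above Timp1 at 3.36, Mmp2, Mmp14 and Mmp3 lie between 1.08 and 1.18, and Mmp28 is the gene with a fold change below 0.

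Set against their inhibitors per kilobase, Mmp2, Mmp3 and Mmp14 were lower relative to Timp1 in ApoE-/- mice and Mmp13 was higher, while the sum of MMPs was not lower relative to the sum of TIMPs. The ratio of Mmp2 to Timp1 was 0.522 to 0.949 in ApoE-/- and 2.46 to 3.72 in WT mice, that of Mmp3 to Timp1 0.615 to 1.20 and 2.94 to 4.47, and that of Mmp14 to Timp1 0.137 to 0.219 and 0.559 to 0.933, all without overlap. The 2 MMPs that edgeR called went the other way, with a ratio of Mmp13 to Timp1 of 0.0189 to 0.0870 in ApoE-/- and 0.00 to 0.00984 in WT mice, without overlap, and of Mmp12 to Timp1 of 0.0300 to 0.190 and 0.0100 to 0.0323, with overlap. The summed MMP level was 169, 205, 237 and 265 CPM per kilobase in ApoE-/- replicates 1 to 4 and 113 to 128 in WT mice, without overlap. Its ratio to the summed TIMP level was 0.775, 0.581, 0.460 and 0.634 in ApoE-/- replicates 1 to 4 and 0.437 to 0.478 in WT mice, where ApoE-/- replicate 3 fell within the WT range. With the longest transcript as the length, these ratios were 0.4382 to 0.720 and 0.392 to 0.4375. They did not overlap, but ApoE-/- replicate 3 was only just above WT replicate 1, so the separation was nearly a tie and depends on the length chosen. Transcript levels are not protein levels, and the activity of the proteases was not measured here.

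Receptors and binding partners of the TIMPs were followed as a list of 11 genes, of which 9 were tested. edgeR called 0, with 3 at an unadjusted p under 0.05, and DESeq2 called 2, Cd44 higher and Kdr lower. Cd44, a hyaluronan receptor known to hold Mmp9 at the cell surface, had 83.3 to 200 against 44.9 to 48.3 CPM (log2 fold change 1.47, SE 0.25), with an adjusted p of 0.0526 by edgeR and 1.59e-05 by DESeq2. Kdr, the VEGF receptor that Timp3 blocks, had 113 to 186 against 211 to 271 CPM (log2 fold change −0.79, SE 0.19), with an adjusted p of 0.115 by edgeR and 0.00247 by DESeq2. Kdr is also 1 of the 10 endothelial markers, of which 9 had fold changes below 0 and 3 did not overlap between the genotypes. edgeR called 0 of them, with 5 at an unadjusted p under 0.05, and DESeq2 called 3 lower (Cdh5, Kdr and Emcn). Their sums were 1726 to 2699 against 2472 to 3019 CPM, with overlap. Their mean log2 CPM was 6.93 to 7.37 in ApoE-/- and 7.43 to 7.54 in WT mice, without overlap. The part of the endothelium in the level of Kdr was not tested. Cd63, the tetraspanin receptor of Timp1, had 17.1 to 39.1 against 20.2 to 23.7 CPM (edgeR adjusted p = 0.516) and was called without ApoE-/- replicate 1 (log2 fold change 0.67, adjusted p = 0.0260). Lrp1, the endocytic receptor that clears TIMPs and MMPs, had 1651 to 3582 against 1806 to 2034 CPM (edgeR adjusted p = 0.536).

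Each of the 4 TIMP genes lies in or around another gene. Timp1 sits inside Syn1, Timp3 inside Syn3 and Timp4 inside Syn2, each on the opposite strand, and Timp2 holds Cep295nl on its own strand. Timp4 also lies inside Gm17482 on the opposite strand, with no shared exon base and 0 to 8 read pairs of Gm17482 in a library. The synapsin genes encode proteins of synaptic vesicles. No exon base is shared by Timp1 and Syn1 or by Timp2 and Cep295nl, but 90 bases (1.53% of the exons of Timp4) are shared with Syn2 and 1733 bases (21.3% of the exons of Timp3) with Syn3, where only the strand could tell reads apart. The libraries keep the strand and the deposited counts are named as stranded, but the exact setting of the counting is not given in the sources used here, and the separation of Timp3 from Syn3 and of Timp4 from Syn2 rests on it. Syn1 had 68.1, 1.71, 8.93 and 1.91 CPM in ApoE-/- replicates 1 to 4 and 4.32 to 12.8 CPM in WT mice. Syn2 had 376, 12.9, 43.7 and 15.9 CPM and 35.7 to 84.0 CPM. Both were highest in replicate 1, the mouse with the neuron and glia markers, in which all 5 members, Reck included, had their lowest ApoE-/- levels. Syn3 had 15.1, 13.9, 15.03 and 6.73 CPM and 8.90 to 11.7 CPM in WT mice, far under the 524 to 1398 CPM of Timp3. Cep295nl had 6.17 to 14.5 against 10.1 to 13.4 CPM. edgeR and DESeq2 called 0 of the 4 genes Syn1, Syn2, Syn3 and Cep295nl, with 0 at an unadjusted p under 0.05 in edgeR.

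**Figure D5:**
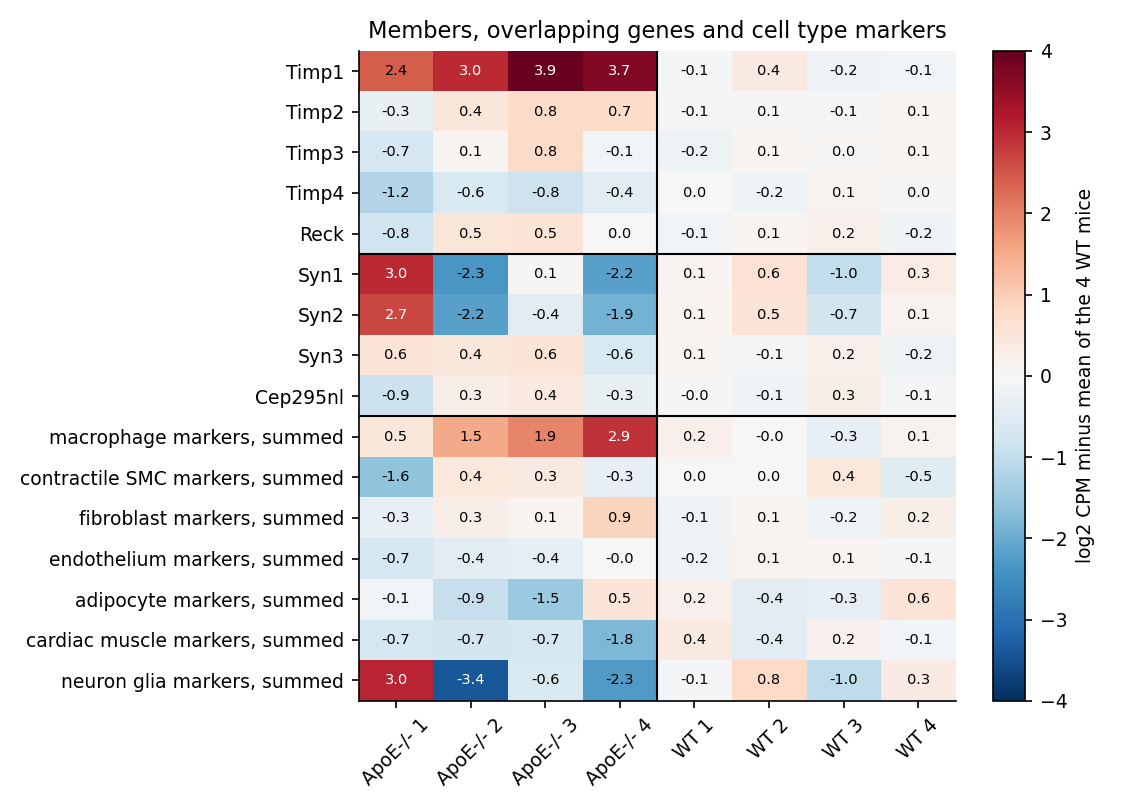
Level of the members, of the genes that overlap them and of summed cell type markers in each mouse, as log2 CPM minus the mean log2 CPM of the 4 WT mice, with the value written in each cell (red above, blue below WT). Timp1 is above 2 in all ApoE-/- mice, Timp4 is below 0 in all of them, and ApoE-/- replicate 1 differs from the other ApoE-/- mice in Syn1, Syn2 and the neuron and glia markers.

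The genes whose pattern over the 8 aortas was most like that of each member were found by the mean absolute difference of centred log2 CPM, among genes with a mean of at least 1 CPM. The nearest to Timp1 were Crabp2, a retinoic acid binding protein, Anxa8, an annexin, and Mpeg1, perforin-2 of macrophages, with mean differences of 0.306 to 0.315. The pattern holds the difference between the genotypes, so the direction of these and the following genes was fixed by their choice. The nearest to Timp2 were Adam9, Fth1 (ferritin heavy chain) and Plat (tissue plasminogen activator), at 0.0645 to 0.0726, with log2 fold changes of 0.45 to 0.57. Nearest to Timp3 were Ntn4, Nfatc1 and Carmil1, at 0.102 to 0.118. Nearest to Timp4 were the Notch ligand Dll1, Txlnb and Fam126b, at 0.103 to 0.129, with log2 fold changes of −0.82 to −0.62. Nearest to Reck were the collagen receptor Ddr2, Emp2 and the receptor tyrosine kinase Axl, at 0.0488 to 0.0512. The distances are smaller for members that vary less, since the mean deviation from the centre was 1.62 for Timp1 and 0.245 to 0.380 for the others.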

How the data were processed

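The authors prepared 1 stranded, ribodepleted, paired-end library for each of 8 mice and deposited the raw pair counts of each gene, not normalized and not pooled. The submitters' processing notes name TopHat2, HTSeq, GRCm38 and mm10, and their versions were not given in the sources used here. The last rows of each file, which name no gene (pairs without a feature, ambiguous or aligned to several places), held 64.4% to 72.1% of all pairs and were left out. The deposited counts are named as stranded, but the exact setting was not given in the sources used here, and exons shared with a gene on the opposite strand depend on it. Identifiers were matched without version numbers to GENCODE M21, which held 21817 of 21859.

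In R 4.3.3, filterByExpr of edgeR 4.0.16 kept 15077 genes. Libraries were scaled by TMM and compared with edgeR's quasi-likelihood F test (robust, two-sided, genotype as sole factor), adjusted by Benjamini-Hochberg over these genes with a threshold of 0.05. The standard error was the log2 fold change divided by the square root of F. DESeq2, which the paper names without a version (1.42.0 here), limma-voom (limma 3.58.1), other scalings and filters, a replicate block and the omission of each mouse were alternatives. DESeq2 without ApoE-/- replicate 1 was added after seeing the data. Level per kilobase was CPM divided by exon length, and a summed marker level is the sum of CPM over a list. Sequences were read with Python 3.11.15 and Biopython 1.88, and promoter windows came from RefSeq.

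The members, lists, tests and named genes were chosen with earlier results of these data known. Named were all members, every gene called by edgeR in a list other than the cell type markers, the 4 most abundant MMPs, overlapping genes, known partners, targets and inducers, and the 3 nearest patterns of each member. Some genes that only DESeq2, or only the fit without ApoE-/- replicate 1, called were named as well, with a few genes beside them. Replicate numbers belong to different mice. The p-values set the genotype difference against the spread among mice of the same genotype, within these 8 mice. The libraries held 18375898 to 23940156 pairs on genes.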

Additional observations from a re-analysis of the deposited data

Results flagged for a closer look

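Within the groups of 4 mice, the highest or lowest mouse was compared with the others by the gap to its nearest neighbour divided by the range of the group. Of 38 such groups of values (13 genes in CPM and 6 summed levels, ratios or shares, in each genotype), 5 were above Dixon's 95% critical value, where chance gives about 1.90. Timp1 in WT replicate 2, at 8.94 CPM against 6.32 to 6.61 CPM in the other WT mice, had a gap of 0.888 of the range. Syn1 and Syn2 in ApoE-/- replicate 1 had gaps of 0.891 and 0.915, from 68.1 against 1.71 to 8.93 CPM and from 376 against 12.9 to 43.7 CPM, in the mouse with the highest neuron and glia markers. Syn3 in ApoE-/- replicate 4, at 6.73 CPM against 13.9 to 15.1 CPM, had a gap of 0.858. The share of Timp3 in the summed TIMP level of WT replicate 1, 36.6% against 39.6% to 40.2%, had a gap of 0.841. Leaving out WT replicate 2 moved the log2 fold change of Timp1 to 3.49 (edgeR adjusted p = 0.146).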

How the results depend on the processing

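Of the 7 alternatives without an omitted mouse or a block, none ended or turned the call of Timp1 (log2 fold change 3.25 to 3.36, adjusted p at most 0.0418), and Timp2, Timp3 and Reck stayed on their side of the threshold with the same sign. DESeq2 called Timp4 (log2 fold change −0.75), 2 members and 725 genes in place of 70, and limma-voom called 29 genes. With a replicate block, the log2 fold change of Timp1 was 3.25 (edgeR adjusted p = 0.111), 2 genes and 0 members were called, and 1723 genes had an unadjusted p under 0.05. Deviations of equally numbered mice correlated at −0.448 to 0.316, and only ApoE-/- replicate 3 was closest to the WT mouse of its own number. These few correlations cannot settle whether the numbers mark a pairing. Among the lists, DESeq2 called 5 MMPs, 2 ADAM and ADAMTS proteases, 2 partners and 4 inducers. limma-voom called 0 MMPs and 1 inducer, no low-count filter 1 MMP, at least 10 counts in every library 1 MMP and 1 inducer, and the replicate block 0 MMPs, 0 inducers and 0 of the other inhibitors.

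When single mice were omitted, the log2 fold changes were 3.11 to 3.58 for Timp1, 0.35 to 0.66 for Timp2, −0.20 to 0.30 for Timp3, −0.86 to −0.62 for Timp4 and −0.011 to 0.36 for Reck. Timp3 (−0.20) and Reck (−0.011) turned negative without ApoE-/- replicate 3, as their high values in that mouse were then missing. These omissions called 0 to 593 genes (593 without ApoE-/- replicate 1, otherwise at most 17, with at least 1269 genes at an unadjusted p under 0.05), 0 to 3 members, 0 to 5 MMPs, 0 to 3 ADAM and ADAMTS proteases, 0 to 3 partners, 0 to 4 inducers and 0 to 4 other inhibitors. DESeq2 without ApoE-/- replicate 1, chosen after seeing the data, gave 0.65 for Timp2 and −0.62 for Timp4, both past the threshold, and called 1562 genes, 3 members, 9 MMPs, 4 ADAM and ADAMTS proteases, 4 partners, 10 inducers, 1 overlapping gene and 6 other inhibitors.

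With the longest transcript as gene length, the mean shares of the summed TIMP level in ApoE-/- and WT mice were 17.3% and 2.34% for Timp1 (21.2% and 3.06% with the exon union), 38.0% and 36.9% for Timp2, and 40.3% and 51.2% for Timp3. The mean WT values were 9.56% for the share of Timp4 and 0.419 for the ratio of MMPs to TIMPs. These comparisons rest on 4 mice a genotype, 1 of them apart from the rest, and the part of sequencing depth in the number of calls was not tested.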

Other observations

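Other protease inhibitors were followed as a list of 20 genes, of which 18 were tested and 16 had fold changes above 0, with a median log2 fold change of 0.34. edgeR and DESeq2 called 1, Serpina3n, an acute phase serine protease inhibitor, which had 186 to 402 CPM in ApoE-/- and 30.5 to 53.0 CPM in WT mice (log2 fold change 2.64, SE 0.30, edgeR adjusted p = 0.0355). Without ApoE-/- replicate 1, edgeR called 4, Serpina3n, Serpine2 and Pcolce higher and Spock2 lower, whereas without ApoE-/- replicate 3 or 4 or any WT mouse it called 0 of the list. Spock1, Spock2 and Spock3, the testicans, which can inhibit MMPs and are known from brain, had 67.1, 408 and 106 CPM in ApoE-/- replicate 1, the mouse with the highest neuron and glia markers. In the other ApoE-/- mice Spock1 had 0.0875 to 3.14 CPM, Spock2 49.7 to 63.1 CPM and Spock3 0.175 to 11.3 CPM, and in WT mice they had 2.11 to 15.6, 74.9 to 111 and 7.65 to 23.6 CPM.

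The summed levels of the remaining marker lists were low in both genotypes. Those of 6 T cell markers were 4.504 to 10.03 CPM in ApoE-/- and 2.77 to 5.09 CPM in WT mice, those of 5 B cell markers 6.29 to 16.9 and 3.99 to 6.27 CPM, those of 8 skeletal muscle markers 21.2 to 45.01 and 28.3 to 48.5 CPM, and those of 6 mesothelium markers 2.70 to 9.70 and 4.38 to 37.5 CPM. DESeq2 called 1 gene of these 4 lists, the skeletal muscle marker Ckm, lower in ApoE-/- mice. The sums overlapped between the genotypes except those of B cells, whose lowest ApoE-/- sum (6.29 CPM) was just above the highest WT sum (6.27 CPM). Fold changes were above 0 for the 5 tested T cell markers (median log2 fold change 0.66), the 5 B cell markers (1.29) and 4 of 8 skeletal muscle markers (−0.033), and below 0 for the 4 tested mesothelium markers (−0.81), and edgeR called 0 genes of these lists. At an unadjusted p under 0.05 it counted 2 T cell, 3 B cell, 2 skeletal muscle markers and 1 mesothelium marker.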
